A study of Mus musculus with 4 samples.

Results

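LHX1 works in a protein complex, and the 10 genes described here encode LHX1, the proteins it assembles with, proteins that compete with it or turn its partners over, and KCTD1. They are Lhx1, Ldb1, Ldb2, Ssbp2, Ssbp3, Ssbp4, Lmo1, Lmo4, Rlim and Kctd1. They were taken as a list of names, chosen with earlier results of these data known. Symbols were matched to the Ensembl identifiers of the count files, and the list makes up 10 of 39179 genes in those files. All 10 passed the count filter, which left 15822 genes to test.

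RNA of 4 whole chimeric mouse embryos, staged at E7.75 near the end of gastrulation, was sequenced. Embryonic stem cells (ESCs) carrying a doxycycline-inducible transgene were injected into 8-cell hosts of an ARC x RLZRFP cross. The transgene was FLAG-Lhx1 in 2 embryos and FLAG-Lhx1-mt, an altered form that the labels also write as FLAG-Lhx1-Δ, in the other 2. In both groups the drink of the mothers held doxycycline (2 mg/mL) and sucrose (5%), and they had it over 24 hours. Collection was at E8.5, and the embryos were judged to be about a day late. The labels used here do not say what the alteration is, or whether each ESC line is 1 clone. Host cells remain in a chimera, and no uninduced embryo or embryo without a transgene was analysed here, so the groups compare 2 induced forms of LHX1 and not presence with absence.

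LHX1 is a LIM homeodomain transcription factor: its homeodomain binds DNA and its pair of LIM domains binds partner proteins. LDB proteins dimerise and hold LIM domains of several factors together, SSBP proteins bind LDB and protect it from degradation, and the ubiquitin ligase RLIM marks LDB for degradation. LMO proteins consist of LIM domains without a homeodomain, so they occupy the same LDB sites. Mouse embryos without Lhx1, or without Ldb1 or Ssbp3, fail to form a normal head. KCTD1 is a BTB domain protein known for repressing AP-2 transcription factors. The wider study also made ESCs without Lhx1 and without Kctd1.

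Of the 10 genes, Kctd1 and Lmo1 were higher in FLAG-Lhx1 than in FLAG-Lhx1-mt embryos, and the RNA of Lhx1 itself, of the LDB and SSBP genes, of Lmo4 and of Rlim did not pass the test. Kctd1 was 2.79-fold and Lmo1 2.42-fold higher, and none of the 10 fell. Across all genes tested, 6.17% were called, 2.62% as higher and 3.55% as lower. Since the list was chosen with earlier results known, its count of calls cannot be read as an excess over these shares. Calls are those of edgeR's quasi-likelihood test at an adjusted p under 0.05. At an unadjusted p under 0.05, edgeR found 2 of the 10 higher and 0 lower, a share near the 21.3% of all tested genes that passed this looser threshold (9.94% higher and 11.3% lower). DESeq2 and limma-voom each called 2 higher and 0 lower, against 7.6% and 6.44% of all tested genes in either direction. Levels did not overlap between the groups for 3 of the 10 genes, against 52.2% of all tested genes. Across the list log2 folds (FLAG-Lhx1 minus FLAG-Lhx1-mt) ran from -0.60 to 1.48 with a median of 0.09, against a median of 0.01 for all tested genes. In whole embryos fewer cells of a type and less RNA per cell cannot be told apart.

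**Figure D1:**
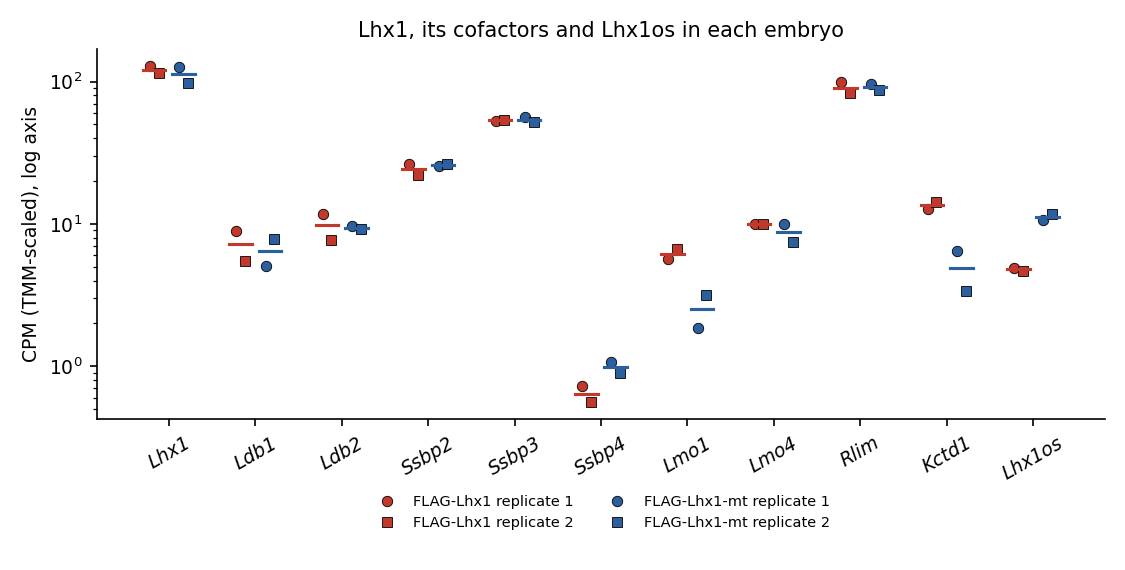
CPM (counts scaled to a common library total with TMM; log axis) of the 10 genes and of Lhx1os in each of the 4 embryos; circles are replicate 1, squares replicate 2, and horizontal lines the mean of each group. The groups separate at Kctd1, Lmo1, Ssbp4 and Lhx1os, while points of Lhx1, Rlim and Ssbp3 of the 2 groups lie among each other.

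Levels are CPM, counts scaled to a common library total after TMM normalisation, and the paired values of a group are those of replicate 1 and then replicate 2. The libraries held 21267116 to 30434442 counts each, so that 1 count was worth 0.0329 to 0.0470 CPM before scaling. Mitochondrial genes took 2.80% to 3.06% of the counts, and the gene model Gm10800 took 5.72% to 13.8%, most in FLAG-Lhx1 replicate 2. The 10 markers listed for a gastrulating embryo were all present, and moved with the groups: they summed to 314 and 249 CPM in FLAG-Lhx1 against 453 and 510 CPM in FLAG-Lhx1-mt, with 1 called higher and 4 lower. Markers of lateral plate and nascent mesoderm summed to 34.6 and 30.5 CPM against 58.0 and 60.1 CPM, with 1 of 6 called higher and 1 lower. Those of visceral endoderm summed to 1740 and 1992 CPM in FLAG-Lhx1 against 3537 and 2994 CPM in FLAG-Lhx1-mt, with 5 of 8 called lower. Those of the neural plate summed to 155 and 140 CPM against 17.6 and 28.1 CPM, with 4 of 6 called higher; most of that sum was Hesx1, at 135 and 121 CPM against 13.2 and 23.2 CPM. Among all tested genes, 2.62% were called higher and 3.55% lower. The part of these markers in the results that follow was not tested. Markers of intermediate mesoderm, a later site of Lhx1 expression, summed to 1.34 to 2.75 CPM and those of maternal blood and decidua to 1.12 to 6.13 CPM. Trophoblast markers summed to 7.52 and 11.3 CPM in FLAG-Lhx1 against 5.15 and 5.53 CPM in FLAG-Lhx1-mt, with 0 called higher and 0 lower. No marker of these lists was at 0 in all 4 embryos.

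Lhx1 is given first, with the DNA beside it, because its count mixes transgene and endogenous reads. Lhx1 (ENSMUSG00000018698) lies on the minus strand of chromosome 11, at 84518284 to 84525535 of GRCm38, and the long intergenic RNA Lhx1os (ENSMUSG00000087211) starts on the plus strand and runs the other way, at 84525660 to 84535831. No exon base of Lhx1os is shared with Lhx1, so the counts of the 2 genes come from separate exons. The stretch between their start sites, chr11:84525536-84525659, is 124 bases long and is shown because both genes start at its ends. It is taken from the RefSeq promoter windows on GRCm38.p6 and printed on the strand of Lhx1, so that Lhx1 begins after its last base, with the match to CCAAT (searched as CCAAT and ATTGG) in capitals.
Lhx1 to Lhx1os: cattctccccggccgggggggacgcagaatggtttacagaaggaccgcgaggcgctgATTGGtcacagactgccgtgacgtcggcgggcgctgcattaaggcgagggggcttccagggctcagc
G and C make up 66.1% of these bases, with 12 CpG. Neither TATAA nor TAATTA, a core that many homeodomain proteins bind, occurs in them on either strand.

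Lhx1 stood at 129 and 114 CPM in FLAG-Lhx1 embryos, against 126 and 98.5 CPM in FLAG-Lhx1-mt embryos. The group ranges overlapped, and the higher value of each group was in replicate 1. The log2 fold was 0.11 ± 0.16 (SE, n = 2 each, edgeR adjusted p = 0.733), and its 95% interval of -0.22 to 0.44 spans a level from 0.860 to 1.36 times that of FLAG-Lhx1-mt. Larger differences in total Lhx1 RNA lie outside that interval. The split of this RNA between transgene and endogenous gene was not measured.

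Lhx1os, a transcript of the endogenous locus, fell. It was at 4.92 and 4.68 CPM in FLAG-Lhx1 embryos, against 10.7 and 11.7 CPM in FLAG-Lhx1-mt embryos. Both FLAG-Lhx1 embryos lay below both FLAG-Lhx1-mt embryos, and the replicates of each group were close. The log2 fold was -1.22 ± 0.25 (SE, n = 2 each, edgeR adjusted p = 0.0111), a 2.33-fold lower level. It was called with every embryo left out in turn, with log2 folds of -1.29 to -1.17. Lhx1os was singled out after its values were seen, as the gene that shares the start region of Lhx1. Of 8 markers of anterior mesendoderm and node, where Lhx1 is expressed, 7 were tested. Shh was called higher, Cer1 and T lower, and 4 were not called, against 2.62% of all tested genes called higher and 3.55% lower. The list summed to 277 and 198 CPM in FLAG-Lhx1 against 391 and 317 CPM in FLAG-Lhx1-mt. The visceral endoderm markers given above were also lower in the same embryos. The part of these cells in the fall of Lhx1os was not tested.

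**Figure D2:**
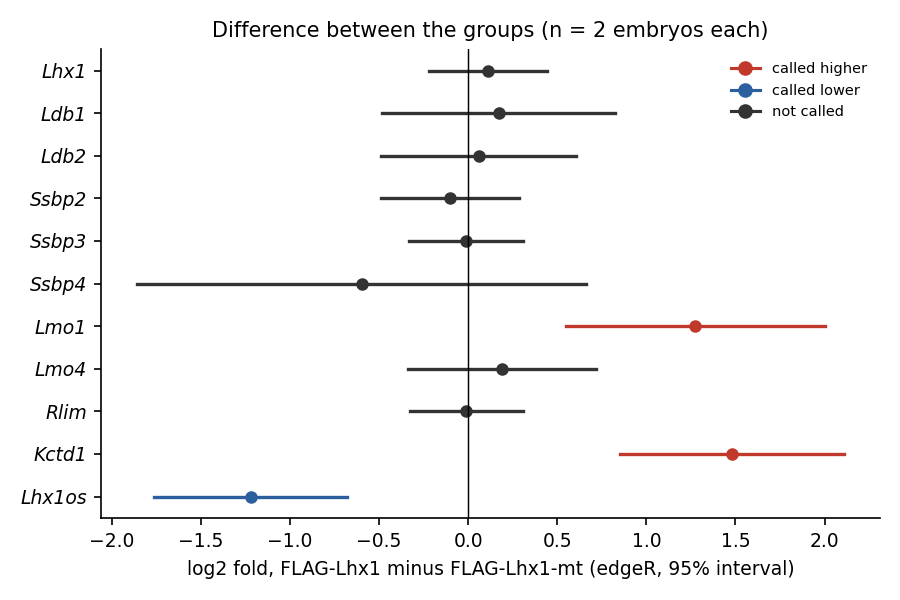
Log2 fold (FLAG-Lhx1 minus FLAG-Lhx1-mt) of each gene from edgeR with its 95% interval, from 2 embryos per group. The intervals of Kctd1 and Lmo1 lie above 0 and that of Lhx1os below 0; those of the other genes span 0, narrowest for Ssbp3 and Rlim and widest for Ssbp4.

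Ldb1 and Ldb2 encode the scaffold. Ldb1 (ENSMUSG00000025223, chromosome 19 at 46031570 to 46045214) was at 8.97 and 5.49 CPM in FLAG-Lhx1 and 5.07 and 7.80 CPM in FLAG-Lhx1-mt. Ldb2 (ENSMUSG00000039706, chromosome 5 at 44472132 to 44799680) was at 11.8 and 7.73 CPM, and 9.62 and 9.20 CPM. The groups overlapped for both genes, and replicate 1 of FLAG-Lhx1 exceeded replicate 2 by 1.63 times in Ldb1 and 1.52 times in Ldb2. The log2 folds were 0.17 ± 0.31 for Ldb1 (SE, edgeR adjusted p = 0.804; 95% interval -0.49 to 0.83) and 0.06 ± 0.26 for Ldb2 (adjusted p = 0.927; -0.49 to 0.61). Changes of up to 1.77 times in Ldb1 and 1.52 times in Ldb2 lie within these intervals. Exons of Pprc1 on the other strand share 3.84% of the exon bases of Ldb1. Pprc1 had 3393 counts in all 4 embryos together, against 108 to 244 for Ldb1 in each. The strand setting is not stated, and the part of Pprc1 reads in the Ldb1 counts was not tested. Per kilobase of exon, Ldb2 had more RNA than Ldb1 in each of the 4 embryos and made up 62.0% to 72.4% of the LDB sum.

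The SSBP genes encode the proteins that bind LDB, and none of the 3 was called by edgeR, limma-voom or DESeq2, which gave Ssbp4 no adjusted p. Ssbp3 (ENSMUSG00000061887, chromosome 4 at 106910701 to 107049694) was at 52.9 and 54.1 CPM in FLAG-Lhx1 and at 56.2 and 51.8 CPM in FLAG-Lhx1-mt, so the FLAG-Lhx1 embryos fell between the others. Its log2 fold was -0.01 ± 0.15 (SE, edgeR adjusted p = 0.973), with a 95% interval of -0.33 to 0.31. Ssbp2 (ENSMUSG00000003992, chromosome 13 at 91460283 to 91703429) was at 26.4 and 22.1 CPM against 25.6 and 26.6 CPM, also overlapping, with a log2 fold of -0.10 ± 0.18 (adjusted p = 0.798; interval -0.49 to 0.28). The antisense gene 4833422C13Rik covers 22.1% of the exon bases of Ssbp2; it had 23 counts in all 4 embryos together, against 434 to 831 for Ssbp2 in each. Ssbp4 (ENSMUSG00000070003, chromosome 8 at 70597490 to 70608872) was barely detected, with 19 and 11 counts in FLAG-Lhx1 and 25 and 28 in FLAG-Lhx1-mt. Its CPM of 0.725 and 0.560 lay below 1.07 and 0.895, but the log2 fold of -0.60 ± 0.59 (adjusted p = 0.617) has an interval of -1.86 to 0.66, so no difference was established. Per kilobase of exon, Ssbp3 made up 68.6% to 73.7% of the SSBP sum, Ssbp2 24.8% to 29.0% and Ssbp4 1.58% to 2.81%. Ssbp1, a mitochondrial DNA-binding protein gene alike only in name, was at 416 to 436 CPM.

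**Figure D3:**
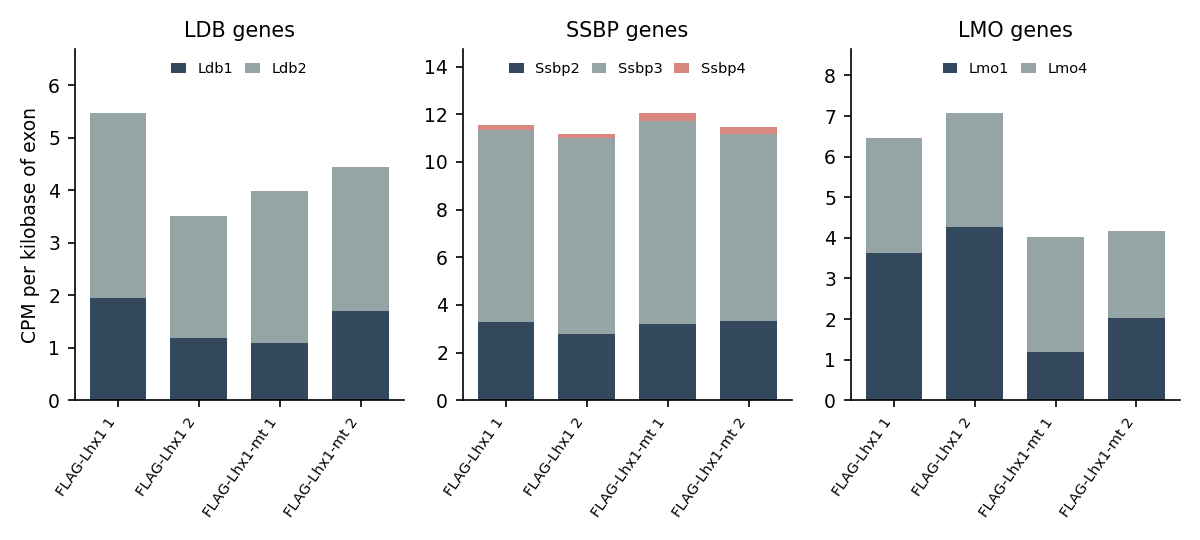
Levels of the LDB, SSBP and LMO genes in each embryo as CPM per kilobase of exon, stacked by gene; numbers after the group name are replicates. The SSBP sums are close to each other at 11.2 to 12.1, the LDB sums run from 3.51 to 5.48 with no separation of groups, and the sums of Lmo1 and Lmo4 (the LMO panel, without Lmo2 and Lmo3) are 6.45 and 7.09 in FLAG-Lhx1 against 4.01 and 4.17 in FLAG-Lhx1-mt.

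The LMO genes encode proteins that compete for LDB, and of Lmo1 and Lmo4 only Lmo1 was called. Lmo1 (ENSMUSG00000036111, minus strand of chromosome 7 at 109138572 to 109175207) was at 5.65 and 6.61 CPM in FLAG-Lhx1 and at 1.85 and 3.16 CPM in FLAG-Lhx1-mt. Both FLAG-Lhx1 embryos lay above both others, and the FLAG-Lhx1-mt embryos differed from each other by 1.71 times. Lmo1 rose by 1.28 ± 0.34 on the log2 scale (SE, n = 2 each, edgeR adjusted p = 0.0389; 95% interval 0.55 to 2.00), from 278 counts summed over FLAG-Lhx1 and 142 over FLAG-Lhx1-mt. Lmo1 was no longer called when either FLAG-Lhx1 embryo was dropped, with 1.36 (adjusted p = 0.0556) for replicate 1 and 1.17 (0.139) for replicate 2, or when replicate 1 of FLAG-Lhx1-mt was dropped (0.94, 0.0652). It was kept when replicate 2 of FLAG-Lhx1-mt was dropped (1.71, 0.000761) and with the other scalings, tests and offsets tried. Neural plate markers were higher in the same embryos, as given above, and their part in the rise of Lmo1 was not tested.

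Lmo4 (ENSMUSG00000028266, chromosome 3 at 144188530 to 144205220) was at 9.92 and 9.97 CPM in FLAG-Lhx1, and at 9.96 and 7.51 CPM in FLAG-Lhx1-mt. The groups overlapped, since FLAG-Lhx1-mt replicate 1 lay between the FLAG-Lhx1 embryos. Its log2 fold was 0.19 ± 0.25 (SE, edgeR adjusted p = 0.716; 95% interval -0.34 to 0.72). Whether Lmo1 and Lmo4 differed in their response was not tested, and their intervals overlap. Per kilobase of exon, Lmo1 made up 56.4% and 60.1% of the sum of Lmo1 and Lmo4 in FLAG-Lhx1 and 29.7% and 48.9% in FLAG-Lhx1-mt. With the length of the longest transcript in place of all exons the shares were 42.6% and 46.3% against 19.4% and 35.4%, so which of the 2 was more abundant in FLAG-Lhx1 depends on the length used.

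The upstream DNA of Lmo1 is shown because Lmo1 rose and its windows held TAATTA; it was chosen after the matches were seen. Windows of 300 bases, 250 before a start site and 50 after it, were searched on GRCm38.p6 for 8 of the 10 genes. Ldb2 had no window among those used. Kctd1, the other called gene, was left out of the search, so whether its start region holds such matches is not known. The 250 bases before the outermost start of Lmo1, chr7:109175208-109175457 on the minus strand, follow with each TAAT of either strand (TAAT or ATTA) in capitals; TAATTA counts as 2 overlapping matches.
Lmo1 upstream: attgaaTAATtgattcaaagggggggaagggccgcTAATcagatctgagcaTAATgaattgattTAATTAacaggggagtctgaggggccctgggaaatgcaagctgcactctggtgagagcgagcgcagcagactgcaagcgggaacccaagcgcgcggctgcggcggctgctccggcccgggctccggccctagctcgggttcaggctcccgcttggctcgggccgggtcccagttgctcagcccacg
The stretch holds 5 matches, all in the part farthest from the start. Lmo1 has a pair of RefSeq windows, and the one of its inner start held 2 matches, as many as windows of Ldb1. At least 5 were found in 6.86% of 32817 windows, and at least 1 in 58.0%, including windows of 5 of the 8 genes. TAATTA was found in 5.30% of windows and, among the 8 genes, in those of Lmo1 only. These are matches of letters; binding was not measured in these files.

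Rlim (ENSMUSG00000056537, chromosome X at 103957163 to 103981284) encodes the ligase that marks LDB proteins, and also acts in X chromosome inactivation. It was at 98.7 and 82.5 CPM in FLAG-Lhx1, and at 95.7 and 86.9 CPM in FLAG-Lhx1-mt, so the groups overlapped. The log2 fold was -0.01 ± 0.15 (SE, edgeR adjusted p = 0.981), with a 95% interval of -0.33 to 0.31. With offsets for length and GC content it was -0.32 (adjusted p = 0.236). Since Rlim is X-linked, the sex genes are given beside it. Xist, which coats the inactive X in females, was at 29.4 and 1.93 CPM in FLAG-Lhx1 embryos, against 2.66 and 14.5 CPM in FLAG-Lhx1-mt embryos. The Y-linked gene Ddx3y was at 12.9 and 14.7 CPM, and 18.6 and 2.91 CPM. Eif2s3y, also Y-linked, was at 2.79 and 14.4 CPM, and 15.8 and 4.28 CPM. Kdm5d was at 0.267 and 1.68 CPM, and 1.76 and 0.128 CPM, and Uty at 2.98 and 4.63 CPM, and 4.47 and 1.69 CPM. High Xist thus fell in 1 embryo of each group, all 4 embryos held Y-linked RNA, and Rlim was highest in 1 embryo of high Xist and next highest in 1 of low Xist. With the embryo of high Xist left out, the log2 fold of Rlim was -0.18 for that of FLAG-Lhx1 and -0.09 for that of FLAG-Lhx1-mt.

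Kctd1 (ENSMUSG00000036225) changed most in the list. It was at 12.8 and 14.2 CPM in FLAG-Lhx1 embryos, against 6.40 and 3.36 CPM in FLAG-Lhx1-mt embryos. Both FLAG-Lhx1 embryos lay above both others, and the FLAG-Lhx1-mt embryos differed from each other by 1.91 times. Kctd1 rose by 1.48 ± 0.30 on the log2 scale (SE, n = 2 each, edgeR adjusted p = 0.00865; 95% interval 0.85 to 2.11), and ranked at 258 of the 15822 tested genes by p. The call held in each of 12 other fits, including those that leave out 1 embryo, whose log2 folds ran from 1.06 (replicate 2 of FLAG-Lhx1-mt dropped) to 2.00 (its replicate 1 dropped). Levels rested on 616 counts summed over FLAG-Lhx1 and 254 over FLAG-Lhx1-mt. The gene lies on chromosome 18 at 14968685 to 15151446 of GRCm38, and other exons cover 1.35% of its exon bases. Neural plate markers were higher and visceral endoderm markers lower in the same embryos, and their part in the rise of Kctd1 was not tested.

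**Figure D4:**
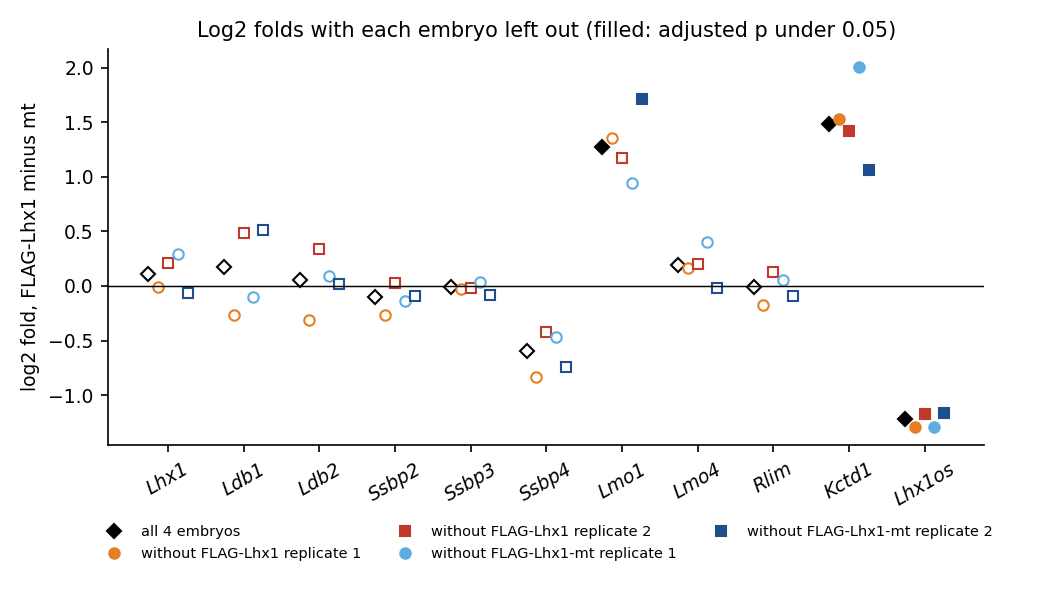
Log2 fold of each gene with all 4 embryos (diamonds) and with 1 embryo left out (circles, replicate 1; squares, replicate 2); filled symbols have an edgeR adjusted p under 0.05. Kctd1 and Lhx1os are filled throughout, Lmo1 is filled with all embryos and without FLAG-Lhx1-mt replicate 2, and Lhx1, Ldb1, Ldb2, Ssbp2, Ssbp3, Lmo4 and Rlim, all open, change sign between fits.

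Levels of different genes were compared per kilobase of exon. From the highest to the lowest the order of the means was Lhx1, Rlim, Ssbp3, Ssbp2, Ldb2, Lmo1, Lmo4, Ldb1, Kctd1 and Ssbp4, from 28.7 to 0.257 CPM per kilobase. Lhx1 exceeded 88.5% of the tested genes and Rlim 77.2%, whereas Ldb1 exceeded 44.7%. The ranges over the 4 embryos did not overlap between Lhx1 and Rlim, Rlim and Ssbp3, Ssbp3 and Ssbp2, Lmo4 and Ldb1, or Kctd1 and Ssbp4. They overlapped between Ssbp2 and Ldb2, Ldb2 and Lmo1, Lmo1 and Lmo4, and Ldb1 and Kctd1, so those neighbours are not ordered. With the longest transcript as length, Ssbp3 lay above Rlim in all 4 embryos. The exon length of the endogenous gene may not be that of the transgene, so the level of Lhx1 per kilobase is uncertain.

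Set against the LDB sum, Lhx1 RNA was 5.76 and 7.98 times as abundant per kilobase in FLAG-Lhx1 and 7.76 and 5.44 times in FLAG-Lhx1-mt, with the groups overlapping. The SSBP sum was 2.11 and 3.18 times the LDB sum, against 3.03 and 2.58 times, again overlapping. The sum of Lmo1 and Lmo4 was 1.18 and 2.02 times the LDB sum in FLAG-Lhx1, and 1.01 and 0.936 times in FLAG-Lhx1-mt. That ratio was higher in both FLAG-Lhx1 embryos, but they differed from each other more than FLAG-Lhx1 replicate 1 did from the FLAG-Lhx1-mt embryos. On the log2 scale its mean was 0.62 ± 0.55 against -0.04 ± 0.07 (SD, n = 2 each). The difference of 0.67 became 0.28 when replicate 2 of FLAG-Lhx1 was dropped and 1.06 when its replicate 1 was. These ratios combine chosen genes and were given no test.

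Other LIM domain genes of the nucleus were mostly low. Of 13 relatives listed, 9 were tested. By edgeR 3 rose and none fell, against 2.62% of all tested genes called higher and 3.55% lower. At an unadjusted p under 0.05, which 21.3% of all tested genes passed, the counts were 4 and 0. DESeq2 called 2 higher and 0 lower, and limma-voom 3 and 0, against 7.6% and 6.44% of all tested genes in either direction. The median log2 fold of the 9 was 1.42, against 0.01 for all tested genes. Genes this low pass the count filter mainly through the group in which they are higher, so neither these counts nor this median are support for a shift. Isl1, a LIM homeodomain gene of heart and motor neuron progenitors, was at 20.8 and 23.0 CPM in FLAG-Lhx1 and 11.4 and 3.99 CPM in FLAG-Lhx1-mt. It rose by 1.52 ± 0.34 (SE, edgeR adjusted p = 0.0164), was not called by DESeq2 (adjusted p = 0.187), and had log2 folds of 2.45 and 0.92 without FLAG-Lhx1-mt replicates 1 and 2. Lhx2, needed for the eye and forebrain, was at 3.55 and 2.29 CPM against 0.859 and 0.799 CPM (1.82 ± 0.46, adjusted p = 0.0295). Lmo3 was at 2.67 and 1.88 CPM against 0.215 and 0.639 CPM (2.36 ± 0.58, adjusted p = 0.0259). Calls of Lhx2 (1.43, adjusted p = 0.302) and Lmo3 (2.06, 0.160) were lost when replicate 1 of FLAG-Lhx1 was dropped. Lhx2 is also among the neural plate markers above. The 4 relatives not tested were Lhx3, Lhx4, Lhx6 and Lmx1a, with 13 to 30 counts each summed over FLAG-Lhx1 and 3 to 18 over FLAG-Lhx1-mt. Lmo2, an LMO gene of blood, was not called (-0.28 ± 0.29, adjusted p = 0.638).

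**Figure D5:**
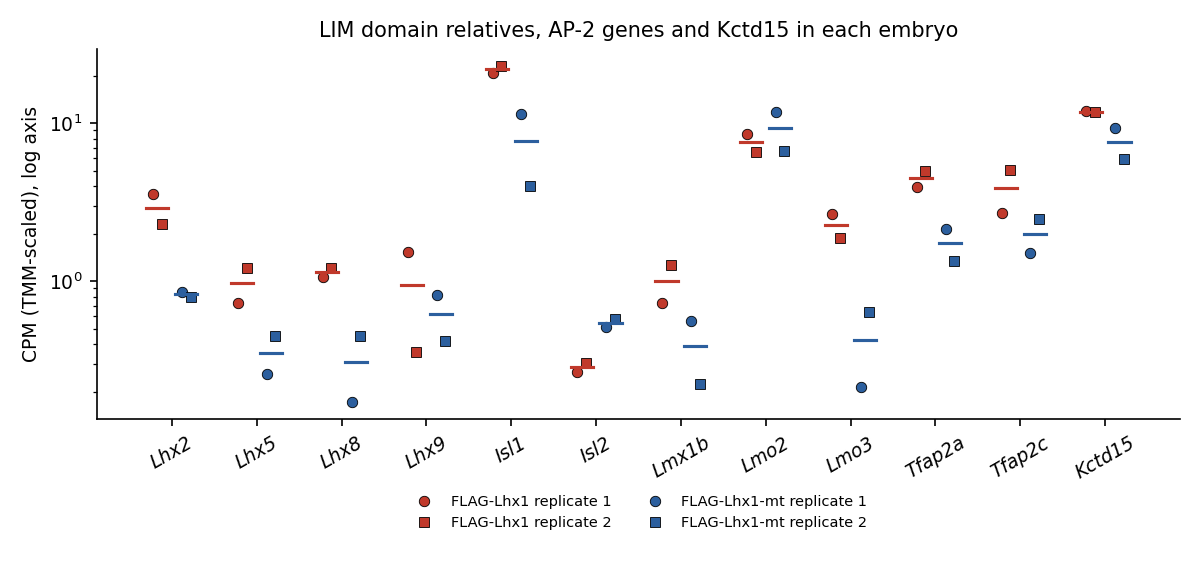
TMM-scaled CPM (log axis) of the tested LIM domain relatives, 2 AP-2 genes and Kctd15 in each embryo; circles are replicate 1, squares replicate 2, and lines group means. The FLAG-Lhx1 embryos lie above the FLAG-Lhx1-mt embryos for Isl1, Lhx2, Lmo3 and Tfap2a. The same holds for Lhx5, Lhx8, Lmx1b, Tfap2c and Kctd15, which were not called. For Lhx9, Lmo2 and Isl2 they lie among or below them. Tfap2b, also a tested AP-2 gene, is not plotted, and its FLAG-Lhx1 embryos lay below its FLAG-Lhx1-mt embryos. Levels did not overlap between the groups for 52.2% of all tested genes.

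KCTD1 has a close relative, KCTD15, and binds AP-2 factors. Kctd15 was at 11.9 and 11.7 CPM in FLAG-Lhx1 and 9.28 and 5.94 CPM in FLAG-Lhx1-mt, with a log2 fold and SE of 0.64 ± 0.26 (edgeR adjusted p = 0.167); it was called when replicate 1 of FLAG-Lhx1-mt was dropped (0.99, adjusted p = 0.0111). Of 21 other KCTD genes, 16 were tested and edgeR called 0, with 1 higher and 2 lower at an unadjusted p under 0.05 (21.3% of all tested genes), and DESeq2 and limma-voom called 0 each. Their median log2 fold was -0.14, and Kctd3 was at -0.35 ± 0.15 (adjusted p = 0.194). Of 5 AP-2 genes, 3 were tested and edgeR called 1 higher and 0 lower, against 6.17% of all tested genes in either direction. Tfap2a, the AP-2 gene of surface ectoderm and neural crest, was at 3.97 and 4.99 CPM against 2.15 and 1.34 CPM, and rose by 1.37 ± 0.38 (adjusted p = 0.0455). Tfap2a was no longer called when replicate 1 (1.49, 0.0645) or replicate 2 (1.21, 0.209) of FLAG-Lhx1 or replicate 2 of FLAG-Lhx1-mt (1.04, 0.102) was dropped, or with offsets for length and GC content (1.31, 0.0572). Tfap2c, which is also among the trophoblast markers above and lay higher in both FLAG-Lhx1 embryos, was not called (0.93 ± 0.41, adjusted p = 0.206). Neither was Tfap2b, whose levels lay the other way, at 0.229 and 0.356 CPM against 0.730 and 0.511 CPM (-1.08 ± 0.74, adjusted p = 0.434).

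Genes of other LDB1 complexes, such as those with GATA and bHLH factors in blood, were listed as well. Of 13, edgeR tested 12 and called Gata4, a gene of endoderm and heart mesoderm, as lower. It was at 7.29 and 6.51 CPM in FLAG-Lhx1 against 13.1 and 14.8 CPM in FLAG-Lhx1-mt, with a log2 fold and SE of -1.02 ± 0.24 (edgeR adjusted p = 0.0194), and was no longer called when replicate 2 of FLAG-Lhx1 was dropped (-0.93, 0.119). None rose by edgeR, which called 2.62% of all tested genes higher and 3.55% lower. At an unadjusted p under 0.05, 4 were higher and 1 lower, against 21.3% of all tested genes. DESeq2 called 1 higher and 1 lower and limma-voom 0 and 1, against 7.6% and 6.44% of all tested genes in either direction. The median was 0.47, against 0.01 for all tested genes, and a shift of the list was not tested. Of 7 genes related to RLIM, edgeR, DESeq2 and limma-voom called 0 each, 1 had an unadjusted p under 0.05 (21.3% of all tested genes), and the median was -0.33. The smallest p-values were those of Ftx, a noncoding gene of the X inactivation centre (-0.55 ± 0.23, edgeR adjusted p = 0.185), and of the ligase gene Rnf6 (-0.29 ± 0.18, adjusted p = 0.388). Of 10 organizer genes listed as partners or candidate targets of LHX1, 9 were tested with a median of -0.23. The 3 tools each called 1 higher and 3 lower. Of all tested genes, edgeR called 6.17%, DESeq2 7.6% and limma-voom 6.44% in either direction. By edgeR, Hesx1 rose (2.80 ± 0.22, adjusted p = 2.8e-06). Nodal (-2.45 ± 0.35, 0.000934), Dkk1 (-0.71 ± 0.17, 0.0196) and Cer1 (-0.72 ± 0.18, 0.0283) fell. The 5 not called were Otx2, Foxa2, Chrd, Pcdh8 and Frzb. Hesx1 is also among the neural plate markers above, and Cer1 among those of anterior mesendoderm and node, so these lists are not independent. Dkk1 and Cer1 were no longer called when replicate 2 of FLAG-Lhx1 was dropped (-0.64 and -0.45), nor was Dkk1 when its replicate 1 was dropped (-0.80) or Cer1 with the offsets (-0.67).

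The genes most alike in pattern were ranked by the distance between log2(CPM + 0.5) values centred on each gene's mean, over the 4 embryos, among 8766 other genes that code for protein and average 5 CPM or more. For Lhx1 they were Tbc1d15, Tmem168, Kif20b, Nudcd1 and Pus7l, at distances of 0.02 to 0.04, and 970 genes lay within 0.25, so a flat pattern like that of Lhx1 was common. For Kctd1 they were Frem1, Igdcc3, Cpm, Itih5 and Pappa, at 0.15 to 0.24, and 6 genes lay within 0.25. Frem1, a basement membrane protein gene, was at 15.8 and 18.7 CPM in FLAG-Lhx1 and 8.37 and 3.90 CPM in FLAG-Lhx1-mt. Igdcc3, which encodes an immunoglobulin family membrane protein, was at 9.73 and 12.6 CPM against 5.02 and 2.56 CPM. Like Kctd1, each had its lowest level in FLAG-Lhx1-mt replicate 2. With 4 embryos this likeness is a description.

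The count of calls behind these results moved with the embryos used. Over all genes it was 976, of which 42.5% were higher, and with upper-quartile scaling 54.4% of 867 calls were higher. It was 628 and 521 with replicate 1 or 2 of FLAG-Lhx1 dropped, and 1648 and 1553 with replicate 1 or 2 of FLAG-Lhx1-mt dropped. For 1 gene, 2 embryos against 2 allow no exact two-sided permutation p below 0.333, so each call rests on the spread edgeR shares across genes.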

How the data were processed

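RNA was taken from 4 individual chimeric embryos. Per the labels' protocols, libraries followed the Geo-seq method, with 10 cycles of pre-amplification and Nextera XT on 0.5 ng of cDNA, read as 100 bp pairs; no molecular identifiers are described. The authors deposited 1 file of whole-number read counts per Ensembl gene and embryo, not normalized. STAR, featureCounts and Subread are named with GRCm38 and mm10, per the submitters' processing notes; their versions, the annotation and the strand setting are not stated there.

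Symbols and positions came from GENCODE vM21 (GRCm38), which held 96.0% of the 39179 identifiers. Promoter windows came from RefSeq (GRCm38.p6), without those of chromosome 18, where Kctd1 lies. Genes were filtered with filterByExpr (minimum count 10, total 15), scaled by TMM and tested across all genes with edgeR 4.0.16 (R 4.3.3; quasi-likelihood, group only, Benjamini-Hochberg). Standard errors were derived from the fold and its F statistic (absolute log2 fold divided by root F), and 95% intervals use 2 residual and 13.4 prior degrees of freedom. Alternatives used limma 3.58.1 and DESeq2 1.42.0, other scalings, no filter, a replicate block, length and GC offsets, and each embryo left out; the fits were tested on simulated data. Counts of any 2 libraries differed by far more than sampling noise (chi-square over its degrees of freedom, 30.4 to 120).

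The members and gene lists were chosen with earlier results of these data known. Named are all 10 members, up to 4 called genes of each related list (or the 2 with the smallest p), the sex genes beside Rlim and the 5 genes most alike to Lhx1 and Kctd1; Lhx1os, Ssbp1, Lmo2, Tfap2b, Tfap2c, called markers and the overlapping and untested genes were added after values were seen. The labels give no litters, so p-values measure the spread between these embryos.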

Additional observations from a re-analysis of the deposited data

How the results depend on the processing

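Each gene was refitted under 12 alternatives. Of 120 alternative values of the 10 genes, 102 kept their direction and their side of the threshold, 3 of Lmo1 lost the call and 15 changed sign; all 15 are of genes that were not called. With 1 embryo left out, log2 folds ran from -0.067 to 0.29 for Lhx1, -0.26 to 0.51 for Ldb1, -0.31 to 0.34 for Ldb2, -0.27 to 0.029 for Ssbp2, -0.084 to 0.040 for Ssbp3, -0.18 to 0.12 for Rlim and -0.016 to 0.40 for Lmo4. Other sign changes were Ldb2 without a count filter (-0.0004), Ssbp3 (0.041) and Rlim (0.042) with upper-quartile scaling, and Ssbp3 with length and GC offsets (0.010) and with these and the replicate block (0.013). The value of Rlim moved most with those offsets, to -0.32 and, with the block, -0.33, and was called in neither. The number of the 10 genes called ranged from 1 to 2 and that of all genes from 521 to 1648 with 1 embryo left out, which leaves a lone embryo assumed to vary like the other group. Nothing in the labels says that the replicate numbers pair the embryos. Deviations of same-numbered embryos correlated at 0.016. With 2 embryos per group the crossed numbers must give the same value with the sign turned, so it cannot settle whether embryos pair. With the replicate block 1138 genes were called and Kctd1 and Lmo1 stayed higher (1.53 and 1.32). No adjusted p was given by DESeq2 for Ssbp4, which had 11 to 28 counts in each embryo.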
